A study of Medicago sativa with 86 samples.

Results

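The 100 genes described here were those whose level differed most between replicate libraries of alfalfa (*Medicago sativa*) leaf. Counts scaled to a common library total (CPM) were taken as log2(CPM + 1), the mean of each library's own group was subtracted, and genes with a mean of at least 5 CPM were ranked by the standard deviation (SD) of these residuals over 85 libraries. The 100 genes with the largest residual SD were kept, of 12707 genes that reached that mean and of 49095 identifiers in the table. The choice therefore used the spread within groups, and every value of that spread below is a description without a test. The identifiers are not paired with gene names in the sources used here, so no function is given for any of them, and the labelled tissue could not be checked against leaf marker genes.

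Messenger RNA was sequenced from leaves of the cultivars Agate and Saranac, each with an effective and an ineffective nitrogen fixation class, which gave 4 lines. All plants had been given rhizobium and received 6, 10 or 16 mM KNO3 weekly in a nutrient solution, in chambers held at 420 or 600 ppm CO2. The 24 groups of line, nitrate and CO2 held 3 libraries (11 groups) or 4 libraries (13 groups). Whether plant or bacterium makes a class ineffective is not stated in the labels. They also leave unstated how many plants went into a library, so the p-values rest on the spread of these libraries alone, which may be technical in part. Each CO2 level had chambers of its own, so the chamber cannot be told apart from the CO2 level. In leaf tissue sequenced in bulk, fewer cells of a type and less RNA per cell cannot be told apart.

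As background, legumes such as alfalfa obtain nitrogen from rhizobia that reduce dinitrogen in root nodules, and the leaf supplies the carbon for it. Elevated CO2 raises the supply of carbon relative to nitrogen, and nitrate in the soil lessens the need for fixation. Alfalfa is an outcrossing polyploid, and its cultivars are populations of plants that are not genetically identical.

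The residual SD of the 100 genes ran from 1.62 to 3.04 on the log2 scale with a median of 1.77. Over all 12707 ranked genes its median was 0.384, its 90th percentile 0.939 and its 99th percentile 1.57. At the threshold MsG0880045222.01 and MsG0580027078.01 were the last genes kept, with 1.6214 and 1.6201, and MsG0580027876.01 and MsG0680033003.01 the first left out, with 1.6200 and 1.6192. The last genes in and the first out thus had nearly the same spread, and the list has no natural edge. The mean level of the 100 genes was 7.62 to 567 CPM with a median of 53.6 CPM, against a median of 22.6 CPM over the ranked genes. Their highest counts were not low, since the highest library of a gene held 10911 counts in the median gene and at least 1005 in each. Other libraries were near the floor, with a median of 18 libraries under 1 CPM per gene and a range of 0 to 68.

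**Figure D1:**
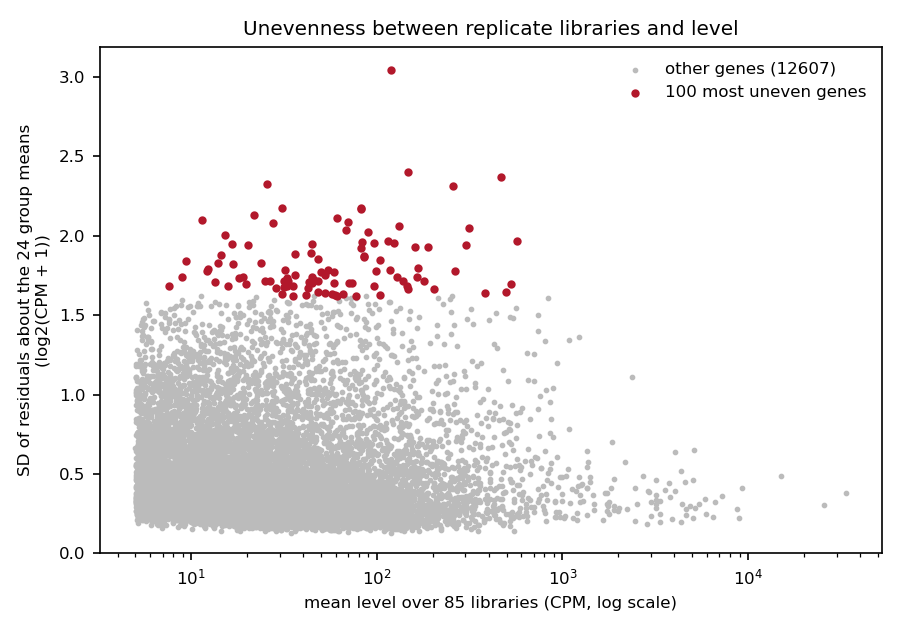
SD of the log2(CPM + 1) residuals about the 24 group means (vertical axis) against the mean level over 85 libraries in CPM (horizontal log axis), 1 point per ranked gene, with the 100 most uneven genes in red. The red points lie between 1.62 and 3.04 at mean levels from 7.62 to 567 CPM.

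Levels of single genes spanned several orders of magnitude among libraries that carried the same labels. Values of a gene in the libraries of a single group, here and below, are from the group where its log2(CPM + 1) had the largest SD. They show the extreme group of that gene and not a typical one. MsG0880046182.01 had the largest residual SD, 3.04. At 6 mM and 600 ppm the 3 libraries of effective Saranac held 0, 406 and 565 CPM of it. Over all 85 libraries it lay under 1 CPM in 45, at 10 CPM or more in 39 and in between in 1. MsG0280010631.01 followed with a residual SD of 2.40, and at 16 mM and 420 ppm the 4 libraries of effective Saranac held 0.0399, 0.110, 316 and 1277 CPM. A pair of those libraries was near 0 and the other pair far above.

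MsG0480022056.01 (residual SD 2.37) stood at 0.664, 276 and 1199 CPM in the 3 libraries of effective Saranac at 6 mM and 600 ppm. MsG0280006552.01 (2.31) held the highest single value in CPM, which is not scaled by gene length. In ineffective Agate at 16 mM and 420 ppm its 4 libraries had 0.0850, 1.36, 1.93 and 16208 CPM, so that 1 library alone was high. The 5 libraries farthest from their group means held 52.8% of its residual sum of squares, the most of any of the 100 genes, and its median over the 85 libraries was 0.782 CPM. Over the 100 genes that share had a median of 31.7% and a range of 18.4% to 52.8%. The single farthest library held a median of 8.84%, so in most of these genes the spread did not come from 1 library.

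The other genes with the 10 largest residual SDs behaved in the same range. MsG0480022381.01 (2.33) had 0, 50.7 and 168 CPM in effective Agate at 10 mM and 420 ppm, and MsG0480019136.01 (2.17) had 0.0408, 19.2 and 227 CPM in ineffective Agate at 6 mM and 420 ppm. Each group held both near-empty and high libraries. MsG0280010547.01 (2.17) had 0, 98.4 and 124 CPM in effective Saranac at 6 mM and 600 ppm. MsG0680031493.01 (2.17) had 0, 0.414 and 325 CPM in effective Saranac at 16 mM and 600 ppm. MsG0380013739.01 (2.13) was without a count in 2 libraries of effective Agate at 6 mM and 600 ppm and at 39.5 and 145 CPM in the others, so this group was split evenly. MsG0380013875.01 (2.11) had 0.281, 467 and 512 CPM in ineffective Saranac at 10 mM and 600 ppm.

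**Figure D2:**
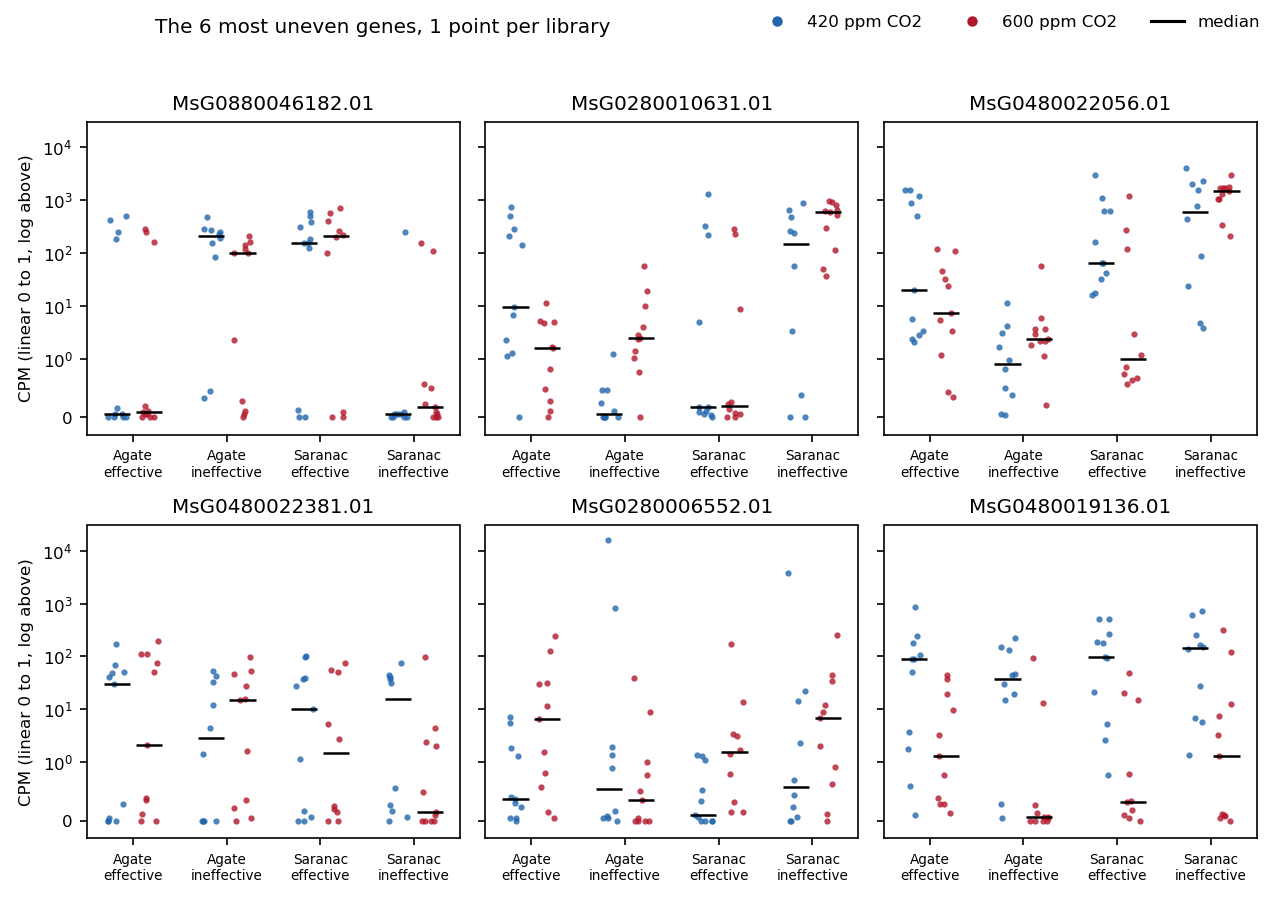
Level in CPM (vertical axis, linear from 0 to 1 and logarithmic above) of the 6 genes with the largest residual SD, 1 point per library, by line and CO2 level, with the median as a bar. MsG0880046182.01 falls into points near 0 and points of at least 81.7 CPM in all 4 lines, with 1 library in between, whereas MsG0280006552.01 has most points under 10 CPM and a single one at 16208 CPM.

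A range of more than 10-fold in CPM + 1 within a group occurred in a median of 13 of the 24 groups per gene, from 6 to 19 groups. Over all ranked genes the median number of such groups was 0. A range of more than 100-fold in at least 1 group was seen in 85 of the 100 genes and in 267 of all 12707 ranked genes. In 63 of the 100 genes at least 1 library had no count, as in 620 of the ranked genes. Only 4 of the 100 were never under 1 CPM. Of the 100 genes, 70 lay under 1 CPM in at least 10 libraries and at 10 CPM or more in at least 10. The same held for 633 of all 12707 ranked genes, so the pattern is not particular to the 100. Both states were met in all 4 lines for 61 of the 70, in 3 lines for 8 and in 2 lines for 1, so most of these genes had both states in each line.

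The spread was present in every line and at every level of CO2 and nitrate. The median residual SD of the 100 genes was 1.94 in effective Agate, 1.94 in ineffective Agate, 1.70 in effective Saranac and 1.70 in ineffective Saranac. The corresponding medians over all ranked genes were 0.369, 0.421, 0.360 and 0.378. By CO2 level it was 1.90 at 420 ppm and 1.74 at 600 ppm, with 0.397 and 0.366 over the ranked genes. By nitrate it was 1.67 at 6 mM, 1.92 at 10 mM and 1.79 at 16 mM. A residual SD of at least 1 in each of the 4 lines was found for 85 of the 100 genes, which were chosen for a large SD. The same count over all ranked genes was not made.

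For 8 genes the SD in the most uneven line was at least 3 times that in the most even. MsG0580027678.01 is an example with high counts. It ranged from 14.7 to 3105 CPM in ineffective Agate but only from 9.77 to 32.996 CPM in ineffective Saranac. In ineffective Agate at 6 mM and 600 ppm its 4 libraries had 14.7, 25.2, 2938 and 3105 CPM and none lay between. MsG0480022947.01 reached 38.02 CPM in effective Agate and 122 CPM in effective Saranac but stayed at or below 1.14 CPM in ineffective Agate and 0.337 CPM in ineffective Saranac.

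The ranking was repeated in each cultivar alone, which gives libraries that the other cultivar's list did not use. Of the 100 genes most uneven in Agate, 41 were also among the 100 most uneven in Saranac, 41% of each list. The Agate list had a median residual SD of 1.53 in the Saranac libraries, against 0.370 over all ranked genes. The Saranac list had a median of 1.65 in the Agate libraries, against 0.397. Both medians cover only the listed genes whose mean over all 85 libraries reached 5 CPM. Among those, the typical gene of 1 cultivar's list was also more uneven than the typical ranked gene in the other cultivar. All 41 shared genes were among the 100, which the choice all but fixed, since it used both cultivars.

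Some of the 100 genes moved together from library to library and others alone. Residuals were clustered by their Pearson correlation over the 85 libraries (average linkage, a mean r of at least 0.5, at least 4 genes), which put 48 genes in 5 sets, A to E, and left 52 outside. Set A held 24 genes with a mean r of 0.67, set B 10 genes with 0.73, set C 5 with 0.74, set D 5 with 0.67 and set E 4 with 0.85. These correlations use the residuals that chose the genes, and the points share library depth and the total that scales every gene. Set A and set D deviated partly in the same libraries, with an r of 0.60 between their mean residuals. For the other pairs of sets r lay between -0.18 and 0.27.

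**Figure D3:**
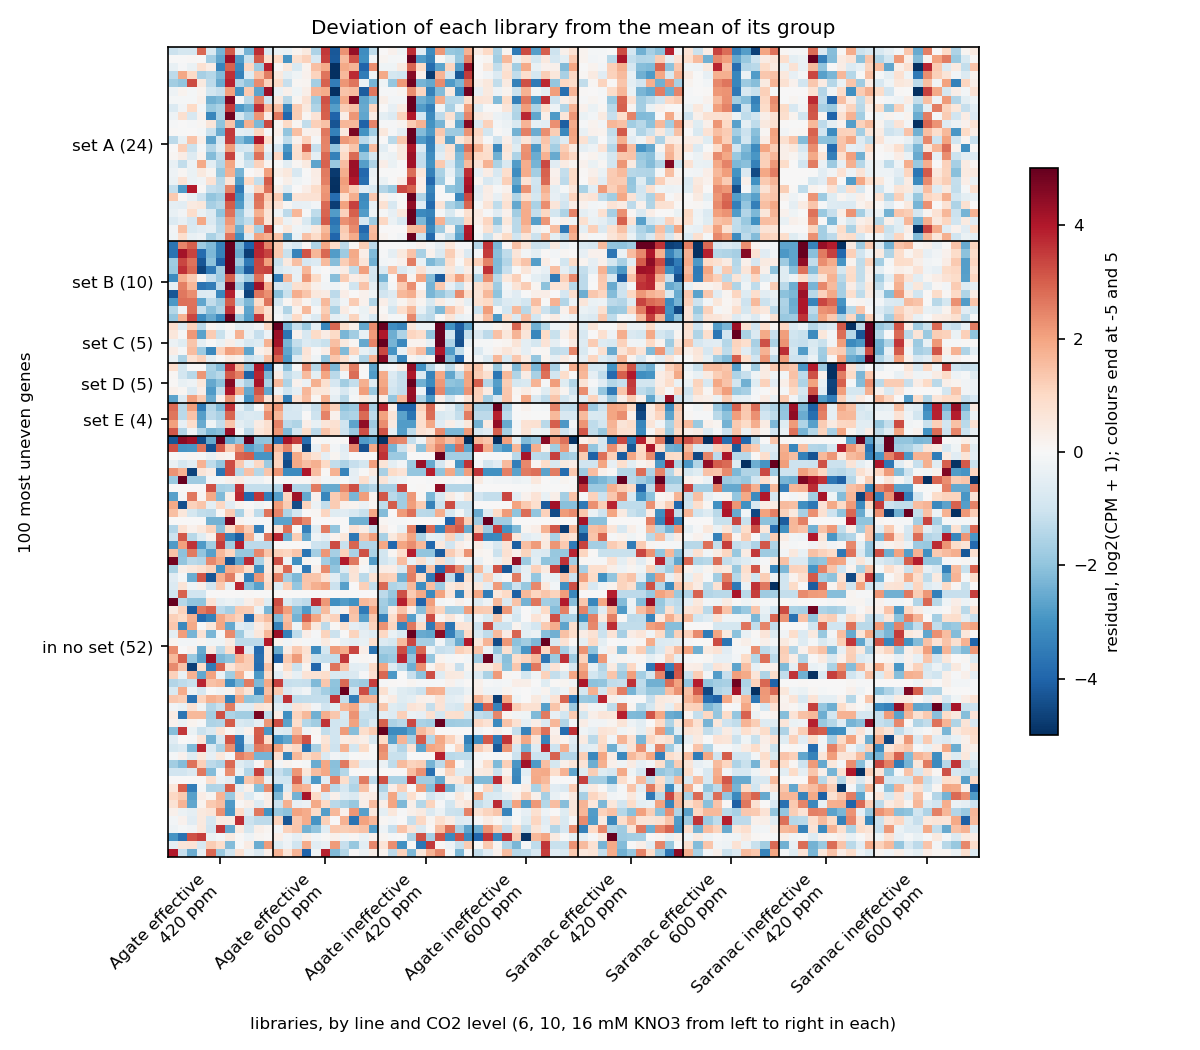
Residual of log2(CPM + 1) from the group mean for the 100 most uneven genes (rows, by set) in 85 libraries (columns, by line and CO2 level, with 6, 10 and 16 mM KNO3 from left to right in each), red above and blue below the mean. Genes of a set share columns of 1 colour, as in set A (24 genes), whereas the 52 genes in no set change colour from row to row.

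The sets were parts of wider or narrower patterns. A residual r of at least 0.7 with the mean residual of set A was reached by 280 genes outside the 100, and by 66 for set C and 115 for set D. For set B it was 7 genes and for set E 14. Of the 52 genes outside the sets, 35 had no ranked gene at an r of 0.7 or more, whereas every gene in a set had at least 1. The gene most like a set member had a median r of 0.91, and that most like a gene outside the sets a median r of 0.59, against 0.69 over all ranked genes.

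Genes whose identifiers carry nearby numbers often moved together, although what the numbering stands for is not given. Among the 100 genes 16 pairs had numbers at most 10 apart within the same prefix, and their residuals had a median r of 0.92 with a range of -0.15 to 0.99. For 13 of these pairs r was at least 0.7. The pairs drew on 21 genes, some of them in several pairs, so they are not independent. Over all 4950 pairs of the 100 genes the median r was 0.027, and 3.96% reached 0.7. The most alike gene had a number within 20 for 29.2% of the genes in sets and 23.1% of those outside. Over all ranked genes it was 10.3%. MsG0480019135.01 and MsG0480019136.01 had an r of 0.98, MsG0280008438.01 and MsG0280008439.01 an r of 0.96, and MsG0280010547.01 and MsG0280010553.01 an r of 0.99. Reads shared by near-identical copies could be split or dropped by the counting, and whether these pairs share reads was not tested.

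Set A was higher at 600 ppm in all 4 lines. Its level, the mean log2(CPM + 1) of its genes, was 2.80 ± 1.93 (SD, n = 42) at 420 ppm, against 6.03 ± 1.84 (SD, n = 43) at 600 ppm. At 6 mM KNO3 the libraries were tight, with 0.677 to 1.51 in the 13 libraries at 420 ppm and 6.09 to 7.72 in the 15 at 600 ppm, and the CO2 levels did not overlap. At 10 mM they ran from 0.581 to 8.23 at 420 ppm and from 1.19 to 7.69 at 600 ppm. At 16 mM they ran from 0.805 to 5.63 and from 1.84 to 7.45. The CO2 levels overlapped at 10 and 16 mM, where the spread within groups also lay. Whether the CO2 difference in these genes depends on nitrate was not tested.

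Single libraries stood far from their group in set A. Replicate 1 of ineffective Agate (10 mM, 420 ppm) lay 4.28 above its group mean, at a level of 8.23 where the other libraries of the group had 0.581 and 3.06. Replicate 3 of effective Agate (10 mM, 600 ppm) lay 3.92 below. The 5 libraries in which set A lay highest above their group means were all Agate, had totals of 19599010 to 23370285 counts, and included 3 at 420 ppm. MsG0480023675.01, the gene of set A with the highest mean CPM, stood at 6.81, 465, 968 and 1125 CPM in the 4 libraries of effective Agate at 10 mM and 600 ppm. MsG0280011473.01 of the same set stood at 0.107, 35.5 and 714 CPM in ineffective Agate at 10 mM and 420 ppm.

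Over all libraries of a line the mean of set B was highest in ineffective Saranac, where its level was 7.18 ± 2.10 (SD, n = 21). It was 4.24 ± 2.40 (SD, n = 21) in effective Saranac, 4.30 ± 2.41 (SD, n = 22) in effective Agate and 2.97 ± 1.21 (SD, n = 21) in ineffective Agate. At 6 mM and 420 ppm the order differed, with 4.21 ± 3.34 (SD, n = 3) in ineffective Saranac and 5.35 ± 2.94 (SD, n = 4) in effective Agate. The lowest of those ineffective Saranac libraries, at 2.05, was replicate 3, whose title number is out of place. The ranges of the lines overlapped, since single libraries of the effective lines reached 9.62 in Saranac and 9.54 in Agate. The spread of its residuals was 2.16 at 420 ppm and 0.926 at 600 ppm. The 5 libraries in which it lay highest above their group means were all at 420 ppm. MsG0480020270.01 of set B, which had the highest mean CPM of the 100 genes, stood at 4.36, 17.8 and 2405 CPM in the 3 libraries of effective Agate at 10 mM and 420 ppm.

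Set C lay low in most libraries and very high in a few. Its level had a median of 2.20 at 420 ppm and 2.58 at 600 ppm. It reached 11.6 in replicate 1 of ineffective Agate (16 mM, 420 ppm), 10.9 in replicate 4 of ineffective Saranac (16 mM, 420 ppm), and 8.49 in replicate 2 of ineffective Agate (6 mM, 420 ppm). These 3 libraries came from ineffective plants at 420 ppm, but the next 4, at 7.49, 6.92, 6.41 and 6.09, were all grown at 600 ppm and 3 of them were effective lines. MsG0380012168.01 of this set had 2.78, 27.7 and 3743 CPM in ineffective Saranac at 16 mM and 420 ppm. The first of the 3 libraries was also the one with the largest deviations over all ranked genes, with a mean square residual of 0.965.

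Set D, like set A, was higher at 600 ppm, at 6.27 ± 1.25 (SD, n = 43) against 3.84 ± 2.32 (SD, n = 42). Its residual spread was 2.02 at 420 ppm and 0.926 at 600 ppm. MsG0580024590.01 of this set had 1.12, 150, 761 and 1171 CPM in ineffective Saranac at 10 mM and 420 ppm, and MsG0780041509.01 had 1.12, 28.6 and 724 CPM in ineffective Agate at 10 mM and 420 ppm. Set E went the other way, with 5.89 ± 2.31 (SD, n = 42) at 420 ppm, against 3.24 ± 1.98 (SD, n = 43) at 600 ppm. MsG0180000013.01 of set E had 6.93, 13.3 and 1049 CPM in effective Agate at 16 mM and 600 ppm, so 1 of 3 libraries was high.

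**Figure D4:**
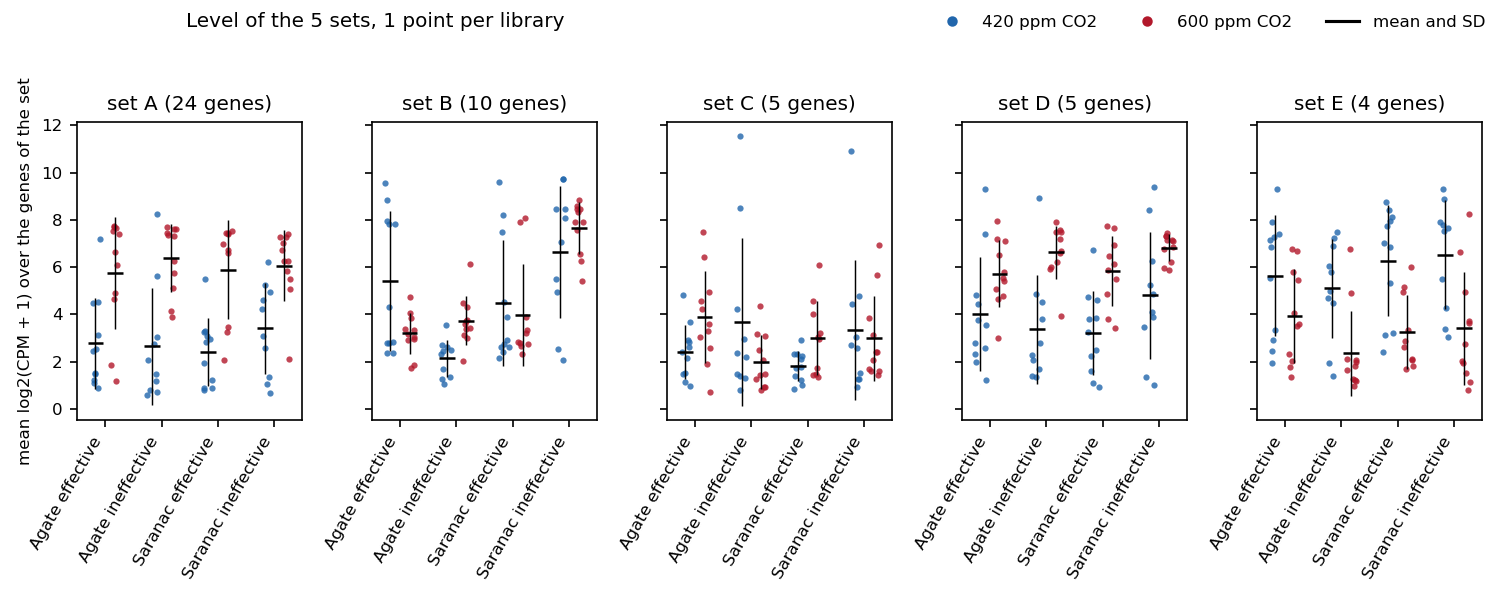
Level of the 5 sets, as the mean log2(CPM + 1) over the genes of the set (vertical axis), 1 point per library, by line and CO2 level, with mean and SD. Sets A and D lie higher at 600 ppm and set E lower in all 4 lines, the mean of set B is highest in ineffective Saranac at either CO2 level, and set C has libraries at 11.6 and 10.9, above the third at 8.49.

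The 4 libraries in which these genes deviated most were all grown at 420 ppm. The mean square residual of the 100 genes was 1.42 to 8.54 per library. It was highest in replicate 1 of ineffective Agate (10 mM, 420 ppm), where 56 genes lay more than 1 above and 17 more than 1 below their group mean. Replicate 3 of effective Agate (10 mM, 420 ppm) followed with 8.04, then replicate 1 of ineffective Saranac (10 mM, 420 ppm) with 6.28 and replicate 1 of ineffective Agate (16 mM, 420 ppm) with 5.98. The 100 genes together held 0.754% of all counts in the median library and between 0.208% and 3.19% over the libraries. Library totals were 13543807 to 25910031 counts.

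A group of 13 genes, singled out after their values were seen, lay either near 0 or well above it, with at most 5 libraries between 1 and 10 CPM and at least 10 libraries on either side. All 13 were outside the sets, and 23 of all ranked genes had this pattern. Both states occurred within the same group in a median of 16 of the 24 groups, from 8 to 18. MsG0280010547.01 was under 1 CPM in 36 libraries and between 23.5 and 124 CPM in the other 49. It was at 10 CPM or more in 16 of 22 libraries of effective Agate, 14 of 21 of effective Saranac and 15 of 21 of ineffective Saranac, but in 4 of 21 of ineffective Agate. MsG0280010553.01, whose number lies 6 above, was high in 15, 14, 14 and 3 libraries of the same lines.

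Other genes of this kind were high in other lines. MsG0880046182.01 was at 10 CPM or more in 14 of 21 libraries of ineffective Agate and 15 of 21 of effective Saranac, but in 7 of 22 of effective Agate and 3 of 21 of ineffective Saranac. MsG0380013875.01 was high in 15 of 21 libraries of ineffective Saranac and 4 of 21 of effective Saranac, but in 1 of 22 of effective Agate and 0 of 21 of ineffective Agate. MsG0080048389.01 was high in all 21 libraries of ineffective Saranac, 19 of 21 of ineffective Agate and 16 of 21 of effective Saranac, but in 11 of 22 of effective Agate. MsG0680035895.01 was high in 4 of 22, 4 of 21, 5 of 21 and 4 of 21 libraries of effective Agate, ineffective Agate, effective Saranac and ineffective Saranac, with no line apart. Whether the share of libraries in the high state differs between lines was not tested.

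The differences between conditions were tested with the quasi-likelihood F-test of edgeR on all 24386 genes that passed its filter on low counts. All 100 genes passed it. A gene was called at an adjusted p under 0.05, with Benjamini-Hochberg adjustment over all 24386 genes. The choice used the spread about the group means, which is the error of each test, and also the mean level over all libraries. A gene whose mean reached 5 CPM only on 1 side of a contrast passed through the side where it is high, so that contrast is not independent of the choice. This applied to 1 gene for CO2, 4 for fixation, 2 for cultivar and 0 for nitrate, all of them called. Differences and p-values of these genes are descriptions. The interaction contrasts were not checked for this, so their differences, p-values and counts of calls are descriptions too. Among the other genes 49 of 99 were called for CO2, 14 of 96 for fixation and 26 of 98 for cultivar. The standard error (SE) of a log2 fold change was large: its median was 0.51 for CO2 in the 100 genes and 0.17 over all genes tested.

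In 16 of the 100 genes at least 1 of the 24 groups had no count in any library. For these the fitted fold change depends on a small prior count and is no bound, and the test of a contrast of group means can lose all power. The SE printed for such genes is derived from that fold change and is no dependable measure of its error. Their CO2 contrast had an unadjusted p over 0.99 in 9 of 16. Counts of calls are therefore also given for the genes with counts in every group of the contrast, 84 in each contrast except nitrate, where it was 86.

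For CO2, 50 of the 100 genes were called, 33 higher and 17 lower at 600 ppm. Among all genes tested 42.2% were called, 21.5% higher and 20.7% lower, so the total is close to the background. With counts in every group it was 47 of 84, of which 30 were higher. All 24 genes of set A were called higher, with a median log2 fold change of 3.72 (3.37 over the 21 with counts in every group), and 4 of the 5 of set D. All 4 genes of set E were called lower, with a median of -3.47, as were 3 of the 10 of set B and 1 of the 5 of set C. Outside the sets 5 of 52 were higher and 9 lower. The sets contain genes that vary together, so the calls of a set are not independent.

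MsG0580024424.01 of set A had a lowest value of 0 CPM, a median of 1.70 CPM and a highest value of 70.5 CPM at 420 ppm, and 0, 104 and 335 CPM at 600 ppm. The ranges overlapped, with 10 CPM or more in 10 of 42 libraries at 420 ppm but 36 of 43 at 600 ppm. The log2 fold change was 5.47 ± 0.61 (SE, edgeR adjusted p = 3.6e-11), with 1 group free of counts. MsG0580025191.01, also of set A, had 0.108, 4.97 and 369 CPM at 420 ppm and 1.40, 263 and 707 CPM at 600 ppm. It reached 10 CPM in 14 of 42 and 38 of 43 libraries, and its log2 fold change was 4.78 ± 0.48 (SE, edgeR adjusted p = 1.2e-12).

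The genes called lower with the largest changes were the pair of close numbers in set E. MsG0480019135.01 had a lowest value of 0 CPM, a median of 23.2 CPM and a highest value of 422 CPM at 420 ppm, and 0, 0.0969 and 143 CPM at 600 ppm. It was at 10 CPM or more in 26 of 42 and 7 of 43 libraries, with a log2 fold change of -4.60 ± 0.73 (SE, edgeR adjusted p = 3.5e-07). MsG0480019136.01 had 0.0408, 89.1 and 875 CPM at 420 ppm and 0, 0.316 and 316 CPM at 600 ppm. It was at 10 CPM or more in 30 of 42 and 11 of 43 libraries, with a log2 fold change of -4.54 ± 0.72 (SE, edgeR adjusted p = 3.4e-07). In both the CO2 levels overlapped.

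**Figure D5:**
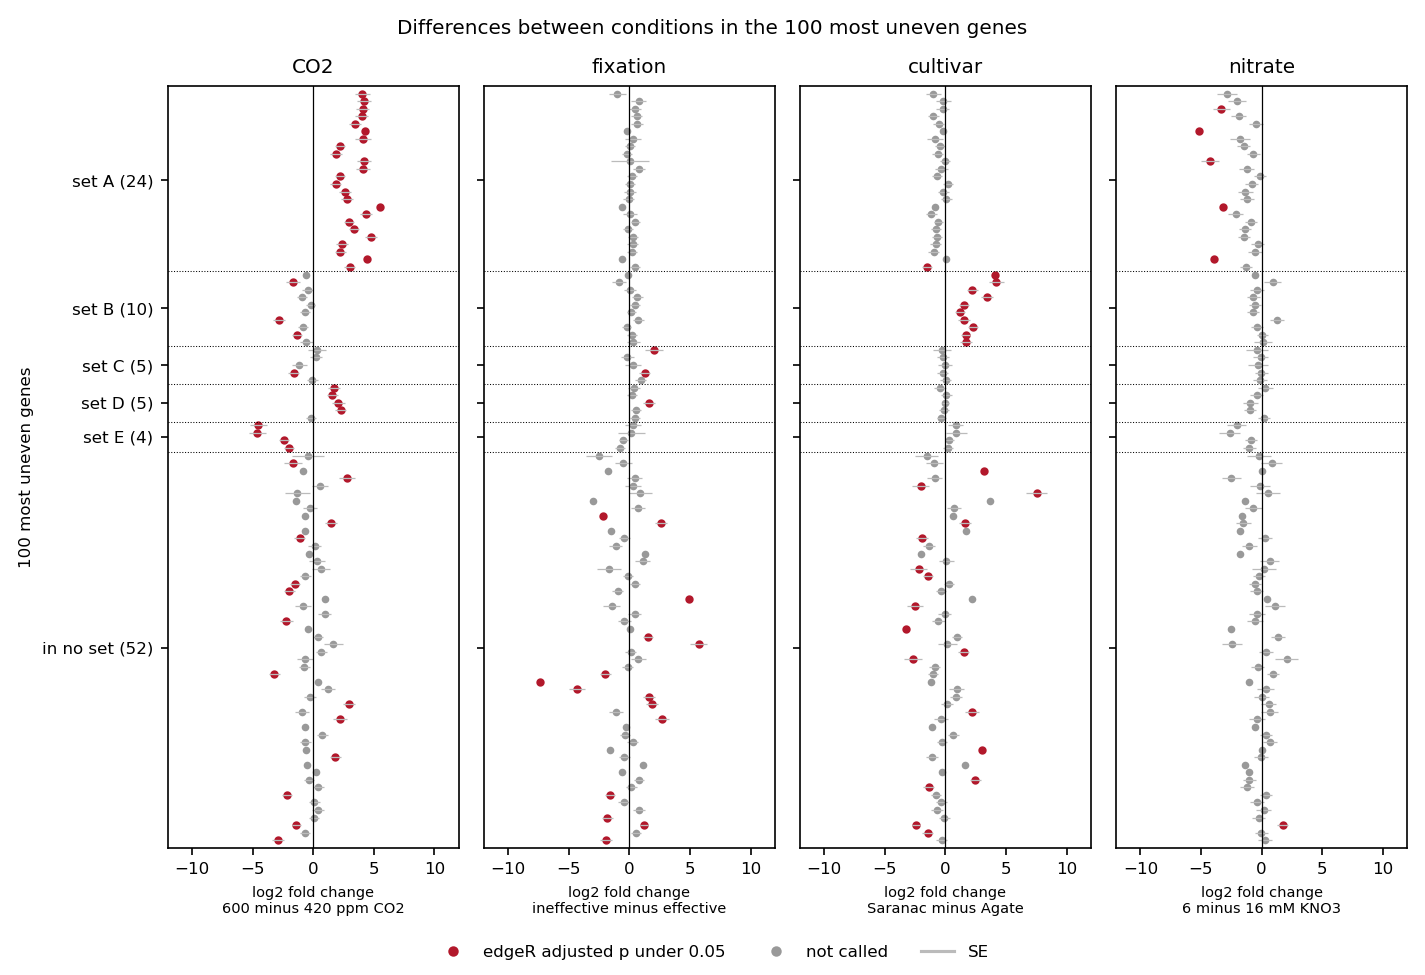
Log2 fold change of the 100 most uneven genes (rows, by set) for CO2, fixation class, cultivar and nitrate, with calls at an edgeR adjusted p under 0.05 in red. Bars are SE and are drawn only for genes with counts in each of the 24 groups. All 24 genes of set A lie to the right for CO2 and all 10 of set B to the right for cultivar.

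For fixation class, 18 of the 100 genes were called, 11 higher and 7 lower in ineffective plants, against 22% of all genes tested, 10.6% higher and 11.4% lower. With counts in every group it was 15 of 84. In sets A, B and E edgeR called 0 genes, and 0 had an unadjusted p under 0.05. From the other sets 2 genes of set C and 1 of set D were higher, and the other 15 lay outside the sets. MsG0780039352.01 had a lowest value of 0 CPM, a median of 0.0975 CPM and a highest value of 178 CPM in effective plants, and 0, 6.59 and 309 CPM in ineffective plants. It was under 1 CPM in 36 of 43 and 11 of 42 libraries. The log2 fold change was 5.72 ± 0.72 (SE, edgeR adjusted p = 4.0e-08), and limma gave an adjusted p of 3.7e-07. Without replicate 1 the edgeR adjusted p was 1, in a fit where 1 group was then left without a count. The call was also lost without the 2 libraries of largest mean square residual over all ranked genes. Without the 5 libraries highest in set A it was lost too, so 9 of 12 alternatives kept it. Groups free of counts were also present in those fits.

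Of the genes named next, all 3 had a mean under 5 CPM in 1 fixation class, so their differences and p-values are descriptions. MsG0180005083.01 reached 10 CPM in 7 of 43 libraries of effective plants and 22 of 42 of ineffective plants, with medians of 0 and 12.3 CPM and highest values of 42.8 and 54.1 CPM. Its log2 fold change of 4.93 ± 1.61 (SE, edgeR adjusted p = 0.021) rests on a fit with 4 groups free of counts, and the adjusted p was 1 without replicate 1 or without replicate 4. MsG0480022947.01 was at 10 CPM or more in 17 of 43 libraries of effective plants and in none of 42 of ineffective plants, whose highest value was 1.14 CPM. Its log2 fold change was -7.40 ± 0.94 (SE, edgeR adjusted p = 6.5e-08) with 2 groups free of counts, and the adjusted p was 0.059 without replicate 4. MsG0780039119.01 had medians of 4.33 and 0.331 CPM and reached 10 CPM in 17 of 43 and 2 of 42 libraries. On the log2 scale it differed by -4.33 ± 0.63 (SE, edgeR adjusted p = 9.6e-07).

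For cultivar, 28 of the 100 genes were called, 17 higher and 11 lower in Saranac, against 16% of all genes tested, 7.38% higher and 8.64% lower. With counts in every group it was 24 of 84. All 10 genes of set B were called higher in Saranac, with a median log2 fold change of 1.97 (1.72 over the 9 with counts in every group). The mean level of this set was 4.24 in effective Saranac and 4.30 in effective Agate, but 7.18 and 2.97 in the ineffective lines. Of set A 1 gene was lower, and outside the sets 7 were higher and 10 lower. MsG0380013875.01, with a mean under 5 CPM in Agate, had a median of 0.0738 CPM and a highest value of 155 CPM in Agate, and a median of 1.35 CPM and a highest value of 553 CPM in Saranac. It reached 10 CPM in 1 of 43 and 19 of 42 libraries, with a log2 fold change of 7.53 ± 0.87 (SE, edgeR adjusted p = 5.8e-09).

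MsG0480022056.01 of set B had medians of 3.36 CPM in Agate and 303 CPM in Saranac and reached 10 CPM in 13 of 43 and 33 of 42 libraries. The log2 fold change was 4.202 ± 0.63 (SE, edgeR adjusted p = 2.2e-06), and highest values of 1543 and 4038 CPM show that the cultivars overlapped. MsG0780039166.01 had medians of 18.4 and 0 CPM and reached 10 CPM in 27 of 43 libraries of Agate and 13 of 42 of Saranac. Its log2 fold change was -3.23 ± 0.86 (SE, edgeR adjusted p = 0.0063), and the adjusted p was 1 without replicate 2, in a fit with 5 groups free of counts. MsG0780038329.01, with a mean under 5 CPM in Saranac, reached 10 CPM in 17 of 43 and 3 of 42 libraries, although its median was lower in Agate, 0.272 CPM against 0.887 CPM. Its log2 fold change of -2.66 ± 0.75 (SE, edgeR adjusted p = 0.0098) was not called by limma, with an adjusted p of 0.38, nor without replicate 1, 3 or 4.

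For nitrate, 6 of the 100 genes were called between 6 and 16 mM KNO3, 1 higher and 5 lower at 6 mM, against 0.41% of all genes tested, 0.0656% higher and 0.344% lower. All 5 lower genes belonged to set A, and 3 of the 6 had counts in every group. The direction was not the same at both CO2 levels for the set, whose level was 1.09 ± 0.30 (SD, n = 13) at 6 mM and 3.22 ± 1.55 (SD, n = 15) at 16 mM at 420 ppm, but 7.22 ± 0.55 (SD, n = 15) and 5.73 ± 1.70 (SD, n = 13) at 600 ppm. With edgeR 0 of the 100 genes were called without replicate 2, where 28 had an unadjusted p under 0.05, and 0 without replicate 4, where 19 had. With limma 0 were called and 13 had an unadjusted p under 0.05, whereas DESeq2 called 14. MsG0280008438.01 had medians of 41.5 CPM at 6 mM and 57.3 CPM at 16 mM, with highest values of 161 and 327 CPM, and it was under 1 CPM in 13 of 28 and 6 of 28 libraries. Its log2 fold change was -5.19 ± 0.80 (SE, edgeR adjusted p = 0.00046) with 1 group free of counts, and limma gave -2.50 with an adjusted p of 0.20.

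MsG0280008439.01, with the next number, had medians of 23.9 and 33.1 CPM and was under 1 CPM in 13 of 28 and 8 of 28 libraries. A log2 fold change of -4.26 ± 0.72 (SE, edgeR adjusted p = 0.0019) was fitted, and limma gave an adjusted p of 0.30. Its highest values were 173 CPM at 6 mM and 264 CPM at 16 mM. In both genes the ranges at 6 and 16 mM overlapped, with the higher maximum at 16 mM. MsG0580027678.01 was the gene called higher at 6 mM, with medians of 28.8 and 22.7 CPM and highest values of 3105 and 2066 CPM. The change on the log2 scale was 1.74 ± 0.44 (SE, edgeR adjusted p = 0.046), and the call was lost in 9 of 12 alternatives, where the adjusted p reached 0.46.

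The CO2 difference of ineffective plants was tested against that of effective plants. Of the 100 genes 18 were called, 10 with a higher and 8 with a lower CO2 change in ineffective plants, against 10.1% of all genes tested, 4.42% and 5.73%. With counts in every group it was 15 of 84. Set B accounted for 7 of the higher calls and set C for 4 of the lower. MsG0480020270.01 of set B had medians of 27.8 CPM at 420 ppm and 4.84 CPM at 600 ppm in effective Agate, and of 13.7 and 28.2 CPM in effective Saranac. In ineffective plants the medians were 6.53 and 23.7 CPM in Agate and 722 and 1966 CPM in Saranac. The difference of log2 fold changes was 5.19 ± 0.95 (SE, edgeR adjusted p = 0.00015).

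MsG0280010631.01, also of set B, had medians in ineffective plants of 147 CPM at 420 ppm and 605 CPM at 600 ppm in Saranac and of 0.0534 and 2.48 CPM in Agate. In effective Agate the median was 9.35 CPM at 420 ppm and 1.56 CPM at 600 ppm, and in effective Saranac 0.176 and 0.183 CPM. The difference was 8.33 ± 1.60 (SE, edgeR adjusted p = 0.00030), with 1 group free of counts. Set C had the lower calls with the largest differences. MsG0280006552.01 had medians of 0.369 CPM at 420 ppm and 6.44 CPM at 600 ppm in effective Agate and of 0.0975 and 1.55 CPM in effective Saranac. In ineffective plants the medians were 0.534 and 0.359 CPM in Agate and 0.569 and 6.68 CPM in Saranac, and its highest values, 16208 and 3759 CPM, were in ineffective plants at 420 ppm. How far single libraries account for the difference was not tested beyond the alternatives given here. In effective plants at 420 ppm the highest values of MsG0280006552.01 were 6.99 CPM in Agate and 1.33 CPM in Saranac. It therefore reached the mean of 5 CPM through other groups. The difference was -7.68 ± 1.52 (SE, edgeR adjusted p = 0.00038), and the call was lost without replicate 1 (-5.61, adjusted p = 0.21), without replicate 2 (-5.04, 0.19) and in limma (-3.28, 0.18). It was also lost (-5.30, edgeR adjusted p = 0.22) without the 2 libraries of largest mean square residual over all ranked genes, which include the one at 16208 CPM. Without the 5 libraries highest in set A it was lost too (-7.44, edgeR adjusted p = 0.27). MsG0480019195.01 had medians of 0.779 and 7.60 CPM in effective Agate, 0.585 and 1.90 CPM in effective Saranac, 1.02 and 0.312 CPM in ineffective Agate, and 1.19 and 0.301 CPM in ineffective Saranac. It gave -7.54 ± 1.29 (SE, edgeR adjusted p = 5.8e-05), and -4.26 with an adjusted p of 0.39 without replicate 2. In limma its adjusted p was 0.026, and the call was lost without replicate 4 of ineffective Saranac (16 mM, 420 ppm) or replicate 2 of ineffective Agate (6 mM, 420 ppm), where it reached 0.051.

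The difference between fixation classes in Saranac was tested against that in Agate. Of the 100 genes 16 were called, 12 with a higher and 4 with a lower difference in Saranac, against 8.64% of all genes tested, 3.79% and 4.85%. With counts in every group it was 14 of 84. Set B accounted for 9 of the 12 higher calls, and the other 7 called genes lay outside the sets. MsG0480022056.01 of set B had medians of 13.4 CPM in effective and 2.12 CPM in ineffective Agate, and of 41.6 and 1281 CPM in Saranac. The difference was 8.93 ± 1.29 (SE, edgeR adjusted p = 3.7e-06). MsG0280010631.01 had medians of 3.49 and 0.762 CPM in Agate and of 0.176 and 297 CPM in Saranac, with a difference of 9.84 ± 1.63 (SE, edgeR adjusted p = 3.8e-05), 1 group free of counts, and an adjusted p of 1 without replicate 4, when 2 groups had none.

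MsG0880046182.01, the most uneven gene of all, went the opposite way. Its medians were 0.0733 CPM in effective and 120 CPM in ineffective Agate, and 185 and 0.0562 CPM in Saranac. The difference was -8.82 ± 1.87 (SE, edgeR adjusted p = 0.0010), and limma gave an adjusted p of 0.00056. Each line still held libraries in both states. MsG0580027678.01 had medians of 24.7 and 702 CPM in Agate and of 22.0 and 20.4 CPM in Saranac, with a difference of -4.56 ± 0.72 (SE, edgeR adjusted p = 1.8e-05). Of the 100 genes 13 were called in none of the 6 contrasts, and 56 in exactly 1.

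The groups accounted for a similar part of the variance in these genes and in others. This is a description, since the part within groups is the spread that chose the 100 genes. The share of variance that lay within groups had a median of 53.5% over the 100 genes, from 28.5% to 80.05%, and of 52.99% over all ranked genes. With no group effect 72.6% would be expected within groups, because 24 means are fitted to 85 libraries. In the sets it had a median of 45.8% and outside them 60.5%. The gene with the smallest share was MsG0580025191.01 of set A, with 28.5%.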

How the data were processed

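Whole read counts were deposited by the authors for each gene identifier, and featureCounts is named in the submitters' processing notes. The aligner, genome build, annotation, strand setting and tool version were not given in the labels or the table. Libraries came from a stranded mRNA kit, per the labels' protocols. None of the 49095 identifiers matched the RefSeq gene table (0 matched), so no names and no sequences are given. The members, lists and rules were chosen with earlier results of these data known.

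Of 86 libraries, 1 had contradictory fixation labels and entered no group. Replicate 3 of ineffective Saranac (6 mM, 420 ppm) has a title number that falls among other treatments and was kept. No columns were identical. CPM used column totals, and residuals of log2(CPM + 1) the 24 group means.

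Contrasts were fitted with edgeR 4.0.16 in R 4.3.3 (quasi-likelihood F-test, 1 coefficient per group, TMM scaling, filterByExpr, Benjamini-Hochberg adjustment over 24386 genes), weighting groups equally. The SE is the log2 fold change over the square root of F. Alternatives were a replicate block, DESeq2 size factors, no filter, limma 3.58.1 (limma-trend), DESeq2 1.42.0, replicates left out in turn, each library left out in turn in limma, and libraries that stood apart left out. Leaving out the 5 libraries highest in set A, leaving out genes with a group free of counts, and the checks of the sets and of the low and high states were added after seeing the data. The edgeR step was tested on simulated counts.

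Genes named are the 10 with the largest residual SD, the 5 with the highest mean CPM (not scaled by gene length), the 2 highest of each set, at most 2 called in each direction of each contrast, and those at the threshold. Others are marked in the text.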

Additional observations from a re-analysis of the deposited data

Results flagged for a closer look

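The CO2 difference differed between fixation classes by an interaction term of edgeR in 18 of the 100 genes, against 10.1% of all genes tested, and limma called 10. Among called genes the 2 largest differences of log2 fold changes in the higher direction were those of MsG0280010631.01 (8.33) and MsG0480020270.01 (5.19). In the lower direction they were those of MsG0280006552.01 (-7.68) and MsG0480019195.01 (-7.54), whose calls were lost in 5 of 11 and 1 of 12 alternatives. The fixation difference differed between cultivars in 16 of the 100 genes, against 8.64% of all genes tested, and limma called 15. Among called genes the 2 largest in the higher direction were those of MsG0280010631.01 (9.84) and MsG0480022056.01 (8.93). In the lower direction they were those of MsG0880046182.01 (-8.82) and MsG0580027678.01 (-4.56). All of these are descriptions, as given above for the interaction contrasts.

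The library with contradictory labels also held these genes, with more than 3 counts for 89 of the 100 genes.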

How the results depend on the processing

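Limits: 3 or 4 libraries per group leave the mean of a gene that is near 0 in some libraries to the few that are high, and genes with a group free of counts have no dependable fold change. For 6 contrasts the number of called members without each replicate number in turn was 45 to 51 for CO2, 9 to 19 for fixation, 15 to 23 for cultivar, 0 to 4 for nitrate, 9 to 19 for CO2 by fixation and 9 to 16 for cultivar by fixation. Leaving out the library with the title number out of place gave 29 for cultivar. Without each single library in limma it was 44 to 47, 15 to 20, 20 to 26, 0 in each case, 7 to 12 and 14 to 17 in the same order, around 45, 17, 25, 0, 10 and 15. The counts below the main ones by over 1.5 times were those of fixation without replicate 1 (9) and 4 (10), cultivar without replicate 4 (15), nitrate without replicate 2 or 4 (0), CO2 by fixation without replicate 2 (9) and cultivar by fixation without replicate 3 (9). By limma CO2 by fixation fell to 10 and nitrate to 0, and by DESeq2 nitrate rose to 14, CO2 by fixation to 32 and cultivar by fixation to 28. Without the genes that had a group free of counts nitrate fell to 3. The cause was not tested beyond the groups free of counts given in the text. With the replicate number as a block the calls were 50, 17, 28, 4, 18 and 15. With all groups pooled, the replicate numbers showed no pairing of the libraries. Over 864 same-numbered pairs of libraries from different groups the median r of their deviations was -0.007. Of these pairs 20.5% were over 0.1 against 21.1% for different numbers, and 15 of 85 libraries correlated best with their own number. Pairing within a single line, CO2 level or nitrate level was not tested. Of 275 alternatives for 23 named calls 242 kept the call and direction, 33 lost the call and 0 changed sign. The member list kept 47 genes with a pseudocount of 0.1, 61 with a pseudocount of 5, 55 by the median absolute deviation and 65 in Saranac alone, and 75 to 83 without a replicate number. It kept 72 in Agate alone, 84 at a mean of at least 20 CPM and 99 with TMM scaling, and 14 genes stayed under all 14 alternatives. The mean rank correlation within set C was 0.64, below its r of 0.74.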

Other observations

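The library given opposite fixation classes by its own labels held 19724147 counts. Of the 100 genes, 16 were under 1 CPM in it, 29 from 1 to under 10 CPM and 55 at 10 CPM or more. Their values all lay inside the range of the grouped libraries, and together they took 0.305% of its counts.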
